A study of Homo sapiens with 6 samples.

Results

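The genes described here encode enzymes that oxidise, reduce and conjugate drugs, steroids and retinoids, enzymes that make or break down glutathione, and proteins of the thioredoxin and peroxidase systems. They were chosen by name. Protein-coding genes of the table of T24-R against T24 were taken whose symbol starts with CYP and a digit, GST, GPX, GCL, GGT, ALDH, ADH and a digit, AKR, UGT, SULT, NQO, TXN, PRDX, MGST, EPHX, CBR, DHRS, HSD, FMO, NOX, DUOX, MT1, MT2 or SOD. This gave 27 of the 2462 listed genes, of which 1 (TXNIP) encodes a binding partner of thioredoxin and not an enzyme. T24 is a long-established line of human bladder carcinoma cells. T24-R, which the sample labels call T24DDP, was derived from it by repeated, rising exposure to gemcitabine and cisplatin with recovery in drug-free medium, and it is a single selected strain of a single parent. RNA from 3 libraries of each was sequenced, and the study's general statement on statistics calls its replicates independent and biological. The labels do not say which cultures the libraries came from, so the p-values measure the spread between these libraries, part of which may be technical. Drug exposure at the time of RNA extraction is not given in the sources used here.

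The values are read counts per gene divided by the size factor of the library, and are called scaled counts. The size factors were 0.939 to 1.03 in T24 against 1.00 to 1.08 in T24-R, and 1170731 to 1411926 reads of each library fell on listed genes. The authors had filtered the table on the same 6 libraries, keeping genes that passed their own test on the size of the log2 fold change and the adjusted p. A gene outside it is described as not listed, and the calls below describe the table and are no independent evidence of change. T24-R replicate 3 stood apart from T24-R replicates 1 and 2, since its read counts gave a chi-square with a median over genes of 2.82 and 2.92, whereas the pair of replicates 1 and 2 gave 0.732 and pairs of T24 libraries gave 0.852 to 1.29. Over the members the same medians were 2.15, 2.62 and 0.824, and pairs of T24 libraries gave 1.26 to 2.36, a range that holds 2.15 and ends below 2.62. Among cell type markers, the table listed 2 of 16 urothelial or epithelial genes, GATA3 (higher in T24-R) and KRT19 (174 ± 27.8 in T24, SD, n = 3, and 0, 0 and 0.979 in T24-R), with summed scaled counts of 148 to 205 in T24 against 35.9 to 48.0 in T24-R. It listed 0 of 9 retina markers, 0 of 5 immune markers, 1 of 7 fibroblast markers (COL1A1, 22.4 to 47.4 in T24 against 142 to 212 in T24-R), 1 of 4 endothelial markers (PECAM1, 0 to 4.26 in T24 against 21.0 to 32.3 in T24-R) and 1 of 5 hepatocyte markers (SERPINA1, 190 to 218 in T24 against 987 to 1228 in T24-R). Their part in the results was not tested, and in bulk RNA a change in the share of cells and a change in RNA per cell cannot be told apart.

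Cells clear foreign and internal compounds in steps. Cytochromes P450, dehydrogenases and reductases introduce or change a reactive group, and transferases then attach glutathione, glucuronic acid or sulfate. Glutathione and thioredoxin hold protein thiols in the reduced state, with electrons from NADPH, and they supply the peroxidases that remove hydrogen peroxide. Glutathione binds cisplatin, and a reduced thiol pool is a textbook factor in platinum response. Several genes of glutathione synthesis and of the thioredoxin system are textbook targets of the transcription factor NRF2, which binds the antioxidant response element.

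Of the 27 members, a higher level in T24-R was called for 16 (59.3%) and a lower level for 11 (40.7%) at a limma adjusted p under 0.05 and a log2 fold change beyond 1. Of all 2462 listed genes, 69.2% were called higher and 29.2% lower. In each of the 27 members the libraries of T24 and T24-R did not overlap, with T24-R above in 16 and below in 11. Such a gap, with T24-R on top, was found in 70.0% of listed genes, and with T24-R underneath in 29.1%. An exact permutation test of 3 libraries against 3 gave a two-sided p of 0.1 for every member, the smallest it allows. All 6 listed P450 genes and both listed aldehyde dehydrogenases were higher in T24-R. All 4 listed conjugating transferases (GSTM1, GSTM3, GSTM4 and UGT2B7) were lower, and no other protein-coding gene whose symbol starts with GST was listed. The reductases and dehydrogenases named AKR, DHRS or HSD, the glutathione genes and the thioredoxin and peroxidase genes held both directions. No epoxide hydrolase, NADPH oxidase, dual oxidase or metallothionein gene was listed, nor was any gene whose symbol starts with FMO, SULT, MGST, SOD or NQO.

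**Figure D1:**
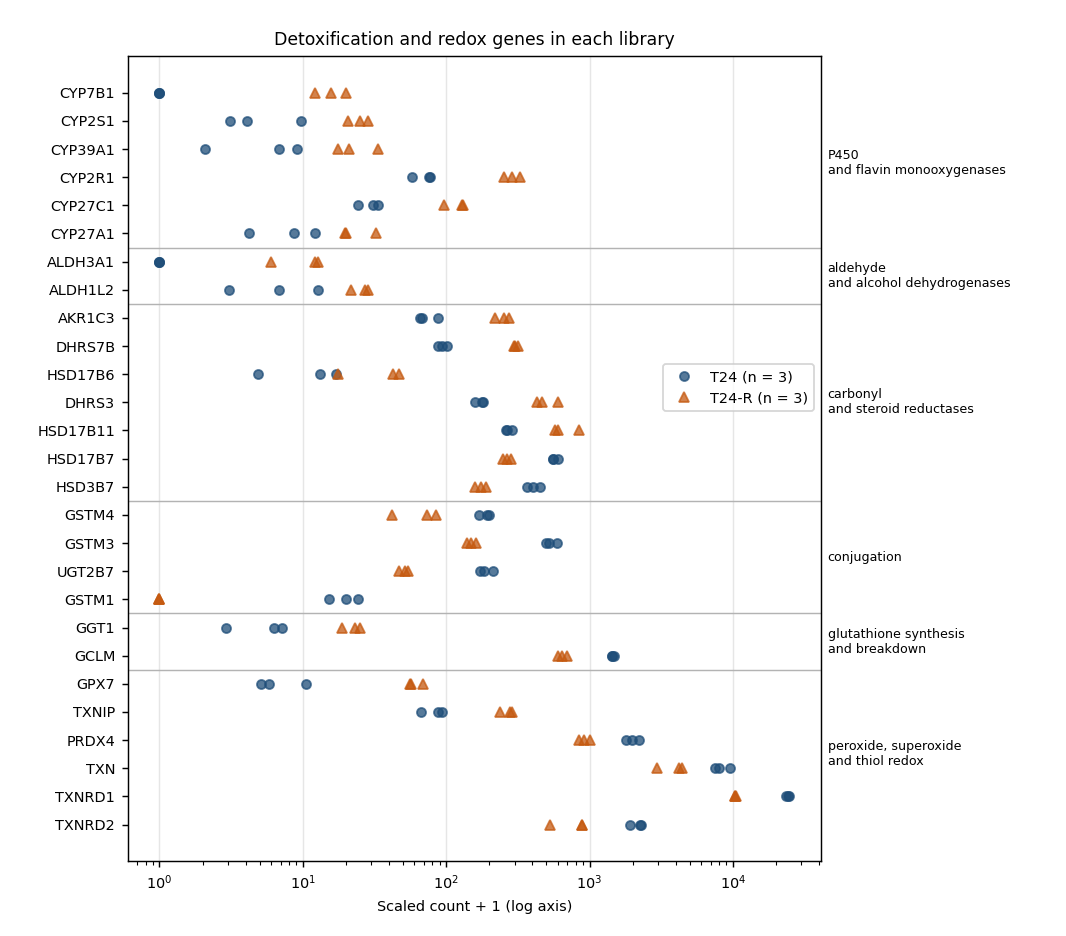
Scaled count + 1 of the 27 members in each library on a log axis, with circles for the 3 T24 libraries and triangles for the 3 T24-R libraries, grouped by role. The members that were lower in T24-R include the most abundant (TXNRD1 and TXN), and in every row the circles and triangles do not overlap.

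The lower members were mostly abundant genes and the higher members mostly scarce ones. The mean of the group with more expression had a median of 569 scaled counts over the 11 lower members and 47.3 over the 16 higher members. For all listed genes these medians were 338 and 62.7. TXN and TXNRD1 together held 79.6% of the scaled counts of the members in T24 and 71.5% in T24-R. The members took 3.18% to 3.26% of the reads on listed genes in T24 and 1.37% to 1.76% in T24-R. The median log2 fold change was 2.00 over the higher members and -1.22 over the lower members, against 1.88 and -1.31 over all listed genes called in that direction. With genes at the floor of 3 reads in a group set to their bound, the medians were 1.88 and -1.22 over the members and 1.71 and -1.29 over the listed genes.

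The count of higher members depended on how the libraries were scaled. Factors computed by TMM, which takes most genes of a table as equally expressed, moved the median log2 fold change of all listed genes by -1.32, and a table selected for its differences does not meet that assumption. On that scale 23.8% of listed genes were called higher and 29.3% lower, and of the members 3 (CYP7B1, ALDH3A1 and GPX7) were called higher and 11 lower. All 11 lower members were thus called lower on both scales. That agreement is no test of the lower calls, since the TMM scale lowers T24-R relative to T24. HSD17B11 turned from 1.29 to -0.06, and the other 15 higher members kept a positive log2 fold change. Without T24-R replicate 3, 66.1% of listed genes were called higher and 23.2% lower, and of the members 16 were called higher and 10 lower, with TXN no longer past the threshold at a log2 fold change of -0.94.

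**Figure D2:**
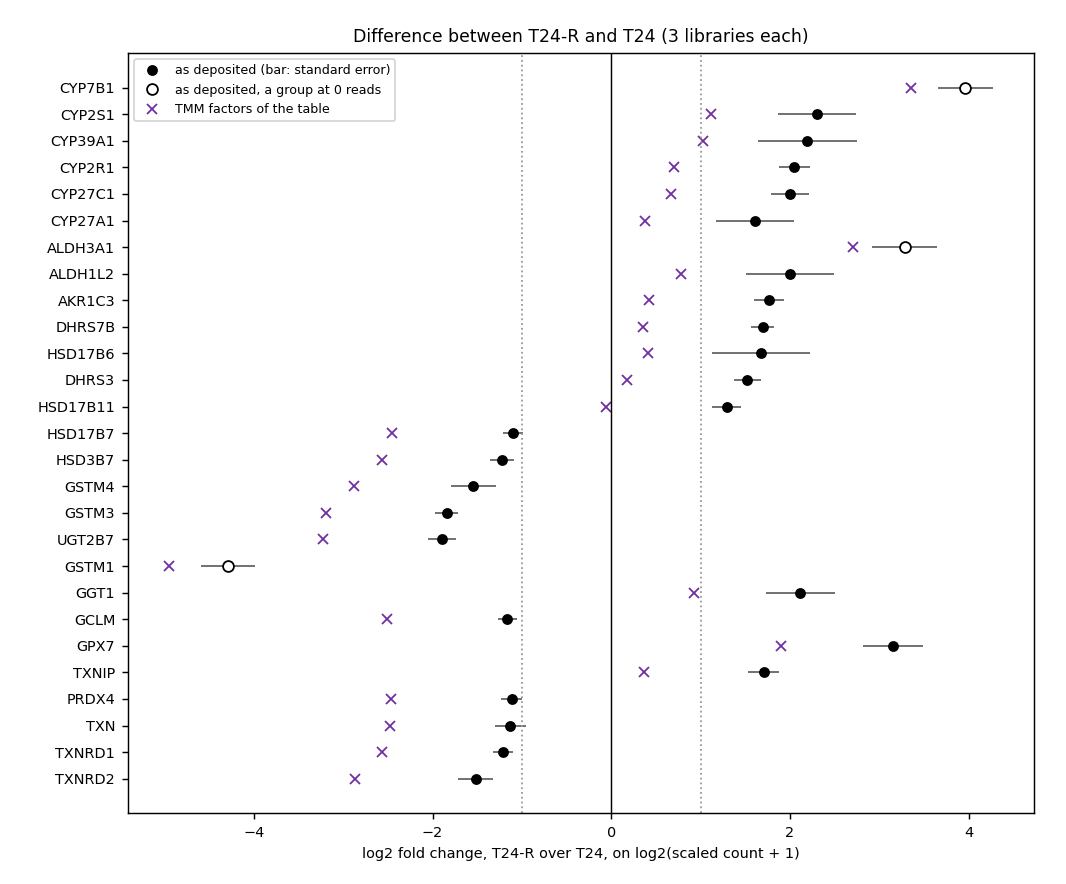
The log2 fold change of each member, T24-R over T24, on log2(scaled count + 1), with circles for the scale as deposited (bars are standard errors from limma, open circles mark a group at 0 reads) and crosses for TMM factors computed on the table. Dotted lines mark 1 and -1. The crosses of CYP7B1, ALDH3A1 and GPX7 lie at 1.90 or above, and those of all 11 lower members at -2.45 or below.

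Of the thioredoxin system, TXN, TXNRD1, TXNRD2 and PRDX4 were listed as lower in T24-R, and the inhibitor TXNIP as higher. Apart from these and GPX7, no protein-coding gene whose symbol starts with TXN, PRDX or GPX was listed. TXN, thioredoxin itself (ENSG00000136810, chromosome 9, 110243811 to 110256640 of GRCh38), had scaled counts of 9533, 8051 and 7555 in T24 against 4447, 4227 and 2947 in T24-R. Every T24-R library was below every T24 library, and replicate 3 was the lowest. The mean was 2.16-fold lower in T24-R, which is -1.13 on the log2 scale (standard error 0.18, limma adjusted p = 0.000284). TXNRD1, the cytosolic thioredoxin reductase that returns thioredoxin to its reduced form with NADPH (ENSG00000198431, chromosome 12, 104215779 to 104350305), had 24106, 23466 and 24737 in T24 against 10437, 10399 and 10296 in T24-R. The T24-R libraries lay within a narrow band, 10377 ± 73.2 (SD, n = 3) against 24103 ± 635 in T24, so the gap of 2.32-fold was far wider than the spread. Its log2 fold change was -1.22 (standard error 0.11, limma adjusted p = 1.54e-05), and leaving out each library in turn gave -1.23 to -1.20.

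TXNRD2, the mitochondrial thioredoxin reductase, had 2242, 2280 and 1929 in T24 against 891, 882 and 532 in T24-R. The lowest value was again that of T24-R replicate 3, and without it the log2 fold change went from -1.52 to -1.27. PRDX4, a peroxiredoxin of the endoplasmic reticulum that removes hydrogen peroxide, had 2208, 1988 and 1800 in T24 against 843, 913 and 1007 in T24-R, a 2.17-fold lower mean. PRDX4 lies on chromosome X, where 114 of the other 152 listed genes were called lower. Such a skew was not limited to PRDX4 and not found for every member. CYP2S1, called higher, lies on chromosome 19, where 174 of the other 191 listed genes were called higher. GGT1, also called higher, lies on chromosome 22, where 22 of the other 55 were.

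TXNIP binds reduced thioredoxin and holds back its activity. Its scaled counts were 66.0, 91.9 and 86.1 in T24 against 276, 285 and 235 in T24-R, a 3.26-fold higher mean (log2 fold change 1.70, standard error 0.17, limma adjusted p = 2.37e-05). Per length of the gene, the TXNIP level was 0.218%, 0.360% and 0.359% of the TXN level in the T24 libraries and 1.96%, 2.13% and 2.51% in the T24-R libraries. With TMM factors the log2 fold change of TXNIP was 0.36 and was not called. GPX7, a peroxidase of the endoplasmic reticulum, had the largest ratio of means of the members with reads in both groups. It had 9.58, 4.09 and 4.84 in T24 against 54.9, 68.3 and 55.8 in T24-R, a 9.68-fold higher mean (3.15 on the log2 scale, standard error 0.33, limma adjusted p = 3.13e-05). The T24 values rest on 4 to 9 reads per library.

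**Figure D3:**
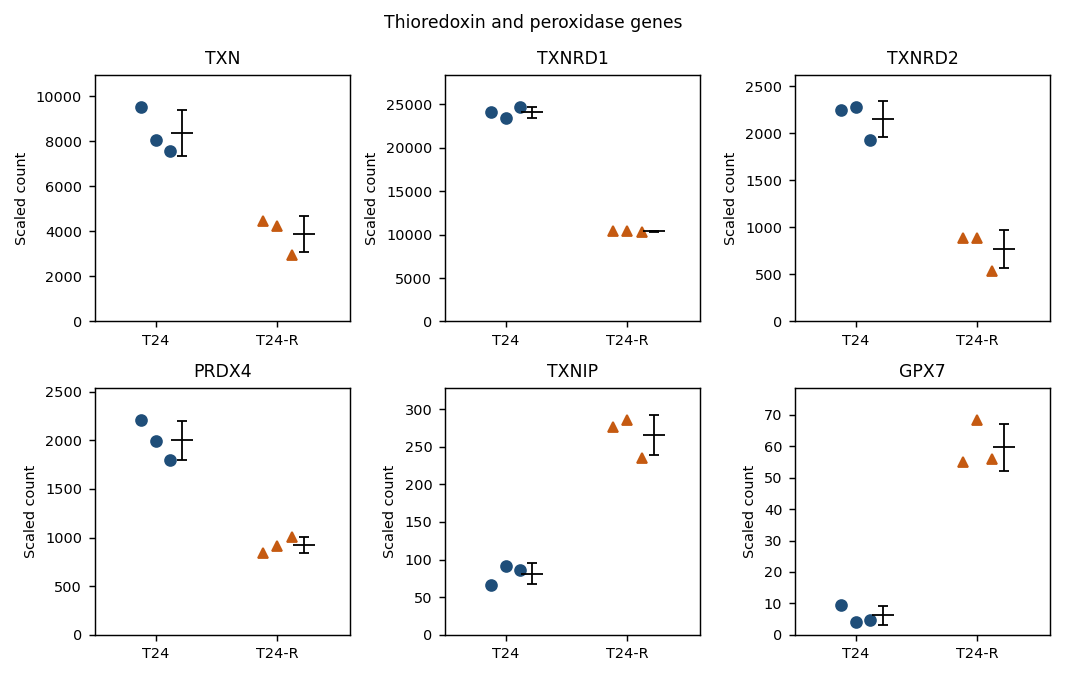
Scaled counts of TXN, TXNRD1, TXNRD2, PRDX4, TXNIP and GPX7 in each library, with circles for T24, triangles for T24-R, and the mean and SD of 3 libraries beside each group. TXN, TXNRD1, TXNRD2 and PRDX4 were lower in T24-R and TXNIP and GPX7 higher, with no overlap in any panel.

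Per length of the gene, TXN was the most abundant member in both groups, with a mean of 7338 scaled counts per kb in T24 against 3392 in T24-R. TXNRD1 followed with 3593 and 1547, then PRDX4 with 1050 and 484. GCLM had rank 4 in T24 (267 per kb), whereas HSD17B11 had rank 4 in T24-R (276 per kb) and rank 9 in T24 (111 per kb). On this scale the levels of the leading 3 genes stood in the same order in both groups.

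Glutathione is made by glutamate-cysteine ligase, and GCLM is the modifier subunit that raises the activity of the catalytic subunit. GCLM (ENSG00000023909, chromosome 1, 93885205 to 93909456) had 1425, 1431 and 1478 in T24 against 597, 640 and 700 in T24-R. The highest T24-R library was far below the lowest T24 library, and the mean was 2.24-fold lower (-1.16 on the log2 scale, standard error 0.10, limma adjusted p = 1.40e-05). GCLC, the catalytic subunit, was not listed. GGT1, the cell surface enzyme that starts the breakdown of glutathione, was scarce, with 5.32, 6.13 and 1.94 in T24 against 23.9, 22.2 and 17.6 in T24-R. Its 4.76-fold higher mean rests on 2 to 6 reads per T24 library, and its value is uncertain, because other genes share 58.3% of its exonic 50-base stretches.

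Glutathione S-transferases of the mu class attach glutathione to reactive compounds, and 3 of them were listed, all lower in T24-R. Among listed genes they are neighbours on chromosome 1, GSTM4 at 109656081 to 109674836, GSTM1 at 109687814 to 109709039 and GSTM3 at 109733932 to 109741038. GSTM3, the most abundant of them in these libraries, had 594, 523 and 494 in T24 against 160, 148 and 139 in T24-R, a 3.61-fold lower mean (log2 fold change -1.84, standard error 0.13, limma adjusted p = 3.85e-06). GSTM4 had 199, 191 and 169 in T24 against 83.8, 73.0 and 41.1 in T24-R. T24-R replicate 3 held the lowest GSTM4 value, and without it the log2 fold change went from -1.54 to -1.24. GSTM1 had 18, 14 and 24 reads in T24 and 0 reads in every T24-R library. Set against a floor of 3 reads per library, its mean was at least 6.51-fold lower in T24-R.

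The reads of GSTM1 and GSTM4 are uncertain to assign, because 51.5% of the 50-base stretches of GSTM1 also occur in other genes, most of them in GSTM2, and 12.4% of those of GSTM4. For GSTM3 the share was 5.25%. Summed per length, the 3 genes had 167, 149 and 143 scaled counts per kb in T24 against 48.2, 43.8 and 36.4 in T24-R. GSTM3 made up 74.7%, 73.9% and 72.8% of that sum in T24 against 69.7%, 71.0% and 80.4% in T24-R. The means were close (73.8% ± 0.943 and 73.7% ± 5.80, SD, n = 3) only with T24-R replicate 3, since T24-R replicates 1 and 2 lay below every T24 library and replicate 3 above. Of the 4 other listed genes within 1 Mb of GSTM1, counting GSTM3 and GSTM4, 3 were called lower and 1 higher.

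UGT2B7 transfers glucuronic acid to steroids and many drugs. It had 182, 211 and 172 in T24 against 50.9, 46.2 and 52.9 in T24-R, a 3.77-fold lower mean (log2 fold change -1.89, standard error 0.16, limma adjusted p = 9.79e-06). The T24-R libraries differed little among themselves, with an SD of 3.44. No other gene of the UGT families was listed.

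**Figure D4:**
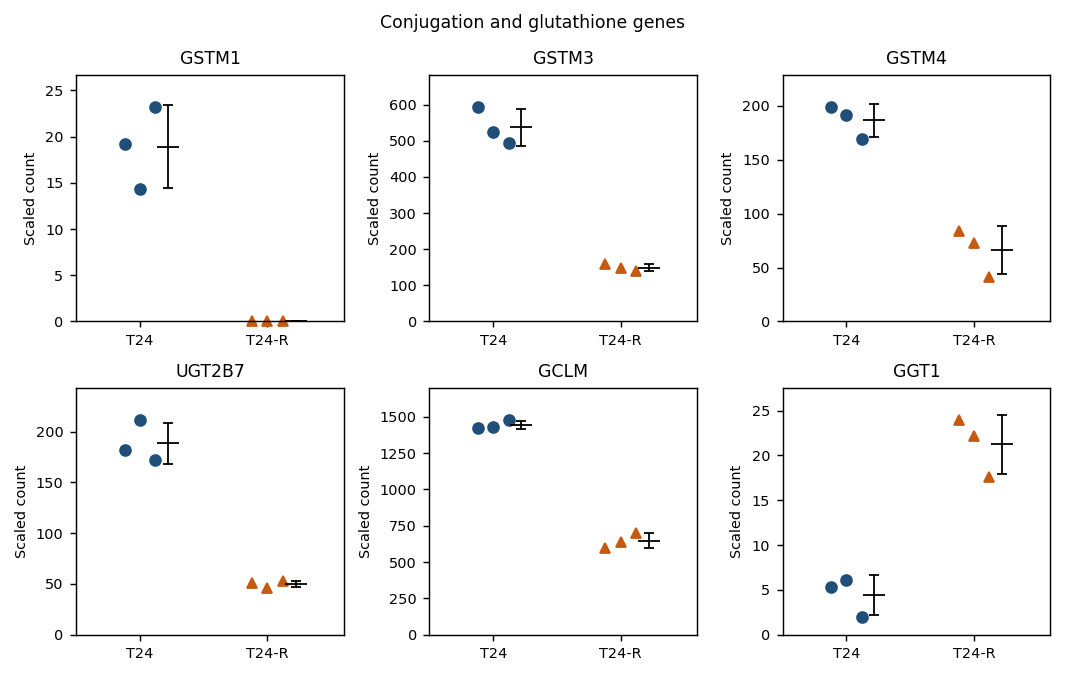
Scaled counts of GSTM1, GSTM3, GSTM4, UGT2B7, GCLM and GGT1 in each library, with circles for T24, triangles for T24-R, and the mean and SD of 3 libraries beside each group. GSTM1 lay at 0 in all T24-R libraries, and only GGT1 was higher in T24-R.

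The upstream sequences of members that were lower are shown where they hold the core letters of the antioxidant response element, TGACNNNGC. RefSeq promoters (GRCh38.p14) were matched for 23 of the 27 members. CYP7B1, ALDH1L2, ALDH3A1 and HSD17B6 had no entry. In the 250 bases before the start, read on both strands, these letters occurred in 3 of 11 lower members (27.3%), in 0 of 12 higher members and in 10.9% of 34788 distinct promoters. The 3 are printed 5′ to 3′ on the strand of the gene, with the match in capitals:
TXNRD1, chr12:104215529-104215778, plus strand: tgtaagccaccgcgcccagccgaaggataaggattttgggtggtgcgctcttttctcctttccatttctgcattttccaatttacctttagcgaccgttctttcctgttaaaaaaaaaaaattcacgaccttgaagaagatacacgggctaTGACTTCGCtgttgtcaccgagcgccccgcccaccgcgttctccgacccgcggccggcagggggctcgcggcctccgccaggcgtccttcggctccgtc
GSTM1, chr1:109687567-109687816, plus strand: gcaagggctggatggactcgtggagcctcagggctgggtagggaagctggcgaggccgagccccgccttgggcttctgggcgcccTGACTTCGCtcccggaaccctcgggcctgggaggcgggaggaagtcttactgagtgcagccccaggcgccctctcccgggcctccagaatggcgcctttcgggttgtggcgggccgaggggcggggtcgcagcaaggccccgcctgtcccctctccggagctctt
GCLM, chr1:93909431-93909680, minus strand: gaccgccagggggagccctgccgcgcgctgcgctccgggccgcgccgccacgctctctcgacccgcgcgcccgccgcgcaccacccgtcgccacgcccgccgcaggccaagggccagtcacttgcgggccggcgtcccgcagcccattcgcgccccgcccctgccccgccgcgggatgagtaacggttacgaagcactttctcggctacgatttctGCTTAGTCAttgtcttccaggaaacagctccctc

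Counted from the start, with -1 as the base before it, the match in TXNRD1 begins at -99 and that in GSTM1 at -165, and both read TGACTTCGC. The match in GCLM lies on the other strand, from -34 to -26, and reads TGACTAAGC in the direction of the motif. The core letters of the xenobiotic response element, GCGTG, occurred in 5 of 11 lower members (45.5%), 2 of 12 higher members (16.7%) and 32.2% of all promoters. TXN held 6 such matches, the most of any member, of which 1 pair shared a base. The E-box letters CACGTG occurred in 1 lower member (PRDX4), in 0 higher members and in 6.31% of all promoters. The letters CCAAT occurred in 3 lower members (27.3%), 5 higher members (41.7%) and 32.0% of all promoters. These matches are descriptions of letters and do not show binding, and other start sites of these genes were not searched. The median GC content of the 250 bases was 66.4% in the lower members, 64.4% in the higher members and 58.0% in all promoters.

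All 6 listed cytochrome P450 genes were higher in T24-R. Summed per length, they had 24.1, 31.3 and 26.8 scaled counts per kb in T24 against 114, 136 and 110 in T24-R. CYP2R1, the enzyme that puts the first hydroxyl group on vitamin D (ENSG00000186104, chromosome 11, 14877440 to 14892252), was the most abundant, with 75.6, 74.6 and 57.1 scaled counts in T24 against 286, 325 and 253 in T24-R. Its mean was 4.17-fold higher in T24-R (log2 fold change 2.05, standard error 0.17, limma adjusted p = 9.60e-06). CYP27C1, which desaturates retinoids, had 23.4, 32.7 and 30.0 in T24 against 95.8, 128 and 129 in T24-R, a 4.10-fold higher mean. With TMM factors their log2 fold changes were 0.71 and 0.67, positive but under the threshold.

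The other P450 genes were scarce, and 3 of them act on cholesterol or its oxidised forms on the way to bile acids. CYP7B1, the oxysterol hydroxylase, had 0 reads in every T24 library and 19, 12 and 15 in T24-R, at least 4.88-fold higher against a floor of 3 reads per library. CYP27A1, the sterol hydroxylase of mitochondria, had 3.19, 11.2 and 7.74 scaled counts in T24 against 19.0, 31.4 and 18.6 in T24-R. CYP39A1, another oxysterol hydroxylase, had 1.06 to 8.17 in T24 against 16.6 to 32.3 in T24-R. CYP2S1, a P450 of epithelia, had 2.13 to 8.71 in T24 against 19.6 to 27.7 in T24-R. With TMM factors CYP27A1, CYP39A1 and CYP2S1 were not called (0.37, 1.02 and 1.11).

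HSD3B7, the dehydrogenase that acts on the sterol ring in bile acid synthesis, went the other way. It had 447, 405 and 366 in T24 against 173, 189 and 158 in T24-R, a 2.34-fold lower mean (log2 fold change -1.22, standard error 0.13, limma adjusted p = 3.84e-05). Its value is uncertain, because an antisense gene covers 64.8% of its exonic bases, and whether reads were counted by strand is not given in the sources used here. HSD17B7, a reductase of cholesterol synthesis that also converts estrone to estradiol, had 602, 554 and 552 in T24 against 281, 264 and 248 in T24-R. Its mean was 2.15-fold lower, and 14.4% of its 50-base stretches also occur in other genes, most of them in the pseudogene HSD17B7P2.

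The other 5 reductases and dehydrogenases named AKR, DHRS or HSD were higher in T24-R. HSD17B11, a dehydrogenase found on lipid droplets, had 288, 260 and 263 in T24 against 601, 570 and 849 in T24-R. DHRS3, which reduces retinal to retinol, had 180, 176 and 158 in T24 against 466, 428 and 600 in T24-R. In both genes T24-R replicate 3 was the highest library, and without it the log2 fold change of HSD17B11 went from 1.29 to 1.11. DHRS7B had 92.6, 101 and 86.1 in T24 against 315, 296 and 301 in T24-R, a 3.26-fold higher mean with little spread in either group.

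AKR1C3 reduces steroid and prostaglandin ketones and some drugs with a carbonyl group. It had 87.3, 64.4 and 66.8 in T24 against 275, 251 and 218 in T24-R, a 3.41-fold higher mean (log2 fold change 1.76, standard error 0.17, limma adjusted p = 2.09e-05). Other genes, mostly AKR1C2, share 5.23% of its 50-base stretches. HSD17B6, which oxidises androgens, had 3.87 to 16.0 in T24 against 16.6 to 46.2 in T24-R, so its groups barely separated. It is singled out, after its values were seen, because its call was lost on the adjusted p alone. The log2 fold change was 1.68 with all libraries, 1.48 without T24-R replicate 1 (limma adjusted p = 0.0647) and 1.42 without T24-R replicate 2 (limma adjusted p = 0.0679). Without T24-R replicate 3, which held the lowest T24-R value (16.6), it was 2.13.

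Both listed aldehyde dehydrogenases were at low levels. ALDH3A1, which oxidises aldehydes from lipid peroxidation and from oxazaphosphorine drugs, had 0 reads in every T24 library and 5, 12 and 12 in T24-R, at least 3.04-fold higher against the floor. ALDH1L2, a folate enzyme of mitochondria that yields NADPH, had 11.7, 2.04 and 5.81 scaled counts in T24 against 25.9, 27.7 and 20.6 in T24-R. The ALDH1A genes, which make retinoic acid and mark stem-like cells in many tumours, were not listed.

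**Figure D5:**
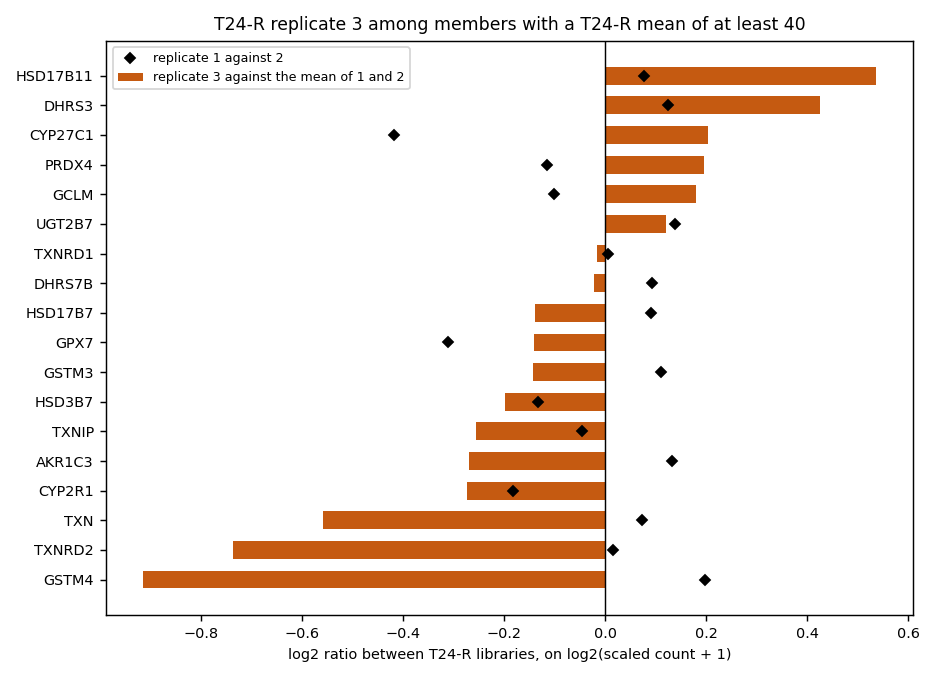
Log2 ratio of T24-R replicate 3 to the mean of T24-R replicates 1 and 2 (bars) and of replicate 1 to replicate 2 (diamonds), on log2(scaled count + 1), for the 18 members with a T24-R mean of at least 40. The bars run from -0.91 for GSTM4 to 0.54 for HSD17B11, and TXNRD1 stays near 0 at -0.02.

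T24-R replicate 3 departed from the other T24-R libraries in some members more than in others. At a T24-R mean of at least 40, the log2 departure was -0.91 for GSTM4, -0.74 for TXNRD2 and -0.56 for TXN. It was 0.54 for HSD17B11 and 0.43 for DHRS3. For these 5 genes the departure was larger than the difference between replicates 1 and 2, which was at most 0.20. Below that mean, HSD17B6 departed most, by -1.35 (17 reads in replicate 3 against 42 and 50). CYP39A1 departed by -0.62, less than the -0.67 between its replicates 1 and 2. TXNRD1 (-0.02) and DHRS7B (-0.02) were level in all 3 libraries. Over the 15 members with a T24-R mean of at least 100 the median absolute departure was 0.20, and over 1077 listed genes at that level it was 0.32.

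Other genes of the same pathways were mostly not listed. Of 35 genes of NRF2, of its targets and of glutathione and NADPH supply, 3 were listed, 2 called lower and 1 higher. HMOX1, heme oxygenase, had 2009, 1774 and 1744 in T24 against 597, 674 and 456 in T24-R (log2 fold change -1.69, standard error 0.15, limma adjusted p = 1.46e-05). MAFG, a binding partner of NRF2, had 2551, 2680 and 2623 in T24 against 1217, 1270 and 1091 in T24-R. CHAC1, which degrades glutathione inside the cell, had 27.7, 20.4 and 20.3 in T24 against 78.8, 76.7 and 42.1 in T24-R. NFE2L2, which encodes NRF2, and its repressor KEAP1 were not listed.

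Of 23 genes of xenobiotic receptors and P450 partners, 2 were listed. PPARG, a nuclear receptor of lipid metabolism, was lower in T24-R (log2 fold change -1.69), and NR1H3, a receptor for oxysterols, was higher (1.03). Among genes of steroid synthesis and receptors, VDR, the vitamin D receptor (118 ± 0.961 in T24 and 315 ± 26.8 in T24-R, SD, n = 3), and SRD5A1, a steroid reductase (398 ± 35.3 and 891 ± 22.2), were higher. Of 23 retinoid genes, 3 were listed. RBP4, a retinol carrier, had 506 ± 28.5 in T24 against 55.4 ± 31.9 in T24-R, RDH10, a retinol dehydrogenase, had 313 ± 35.2 and 129 ± 19.4, and RARRES2 was higher (1.62).

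Among oxidase subunits and maturation factors, CYBC1, a maturation factor, was lower (-1.34). Of 18 genes of gemcitabine transport and metabolism, only the transporter SLC29A2 was listed (39.8 ± 10.2 in T24 against 124 ± 55.3 in T24-R). Of 19 genes of metal handling, including the copper transporters that also carry cisplatin, 0 were listed.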

How the data were processed

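RNA of T24 (n = 3) and T24-R (n = 3) was analysed. Per the study's methods, the authors cleaned reads with fastp, aligned them to GRCh38 with HISAT2, counted them with featureCounts and compared groups with DESeq2. The labels name a mouse build and retinas, which the human gene identifiers and the paper's description contradict. The annotation version and strand setting are not given in the sources used here. The signal the authors deposited is each count divided by a size factor. In each library, 100% of values divided by a common step to whole numbers (within 0.01), which recovered the reads. The authors also deposited group means, gene length in bases, and the log2 fold changes and p-values of their own test, of which only the ranges were read.

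The plan named edgeR for counts and limma for normalized values. limma 3.58.1 (eBayes with trend, R 4.3.3) was run on log2(value + 1) over all 2462 genes, with Benjamini-Hochberg adjustment. Members and lists were chosen with earlier results of these data known. Members are given library by library at a mean of at least 100 in a group or at the largest or smallest log2 fold change of their role group, as a bound at 3 reads or fewer in a whole group, and otherwise by ranges. Alternatives were TMM, limma without trend, a mean of at least 10, pseudocounts of 0.1 and 10, the replicate number as a block, edgeR 4.0.16, DESeq2 1.42.0 and leaving out each library. Scripts were tested on simulated data. Some genes of the pathway lists are not reported here. Coordinates are those of the table. Sharing used GENCODE version 44, in which 9 members have the same start and end. Floors of 3 reads cover counting error only, since reads carry no molecular identifiers.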

Additional observations from a re-analysis of the deposited data

How the results depend on the processing

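The 16 higher and 11 lower members stayed 16 and 11 under limma without trend, log2(value + 0.1), edgeR and DESeq2 on the recovered reads, and the replicate block (16 and 11). TMM factors computed on the table left 3 called higher, because that scale lowers every value of T24-R relative to T24, and gave HSD17B11 a log2 fold change of -0.06 (-0.0607). With log2(value + 10), 14 were called higher (CYP27A1 and ALDH3A1 fell under the threshold), and with a mean of at least 10, 3 members were not tested and the other 24 kept their calls. Leaving out each library gave 15 to 16 higher and 10 to 11 lower. The lost calls were HSD17B6 without T24-R replicate 1 or 2 and TXN without T24-R replicate 3. The deviations of same-numbered libraries correlated across genes at 0.12, 0.02 and 0.18, and those of differently numbered libraries at -0.16 to 0.11. For each T24 library the same-numbered T24-R library gave the highest value. Whether same-numbered libraries shared a batch was not tested. Low reads limit CYP7B1, ALDH3A1 and GSTM1 to bounds.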
